A study of Mus musculus with 48 samples.

Results

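Cultures of adult mouse sensory neurons in which the transcription factor Atf4 had been knocked down were compared with cultures given control siRNA. The comparison rests on 8 of the 48 libraries of the series, 4 transfected with an ON-TARGETplus siRNA pool against Atf4 (siAtf4) and 4 with the control siRNA (siCONTROL), and on 14876 genes that passed a filter on low counts, of 34183 in the table. Both groups were neuron-enriched cultures of wild-type dorsal root ganglion, the cluster of sensory neuron cell bodies beside the spinal cord, transfected with Dharmafect 2 directly after isolation and sequenced 42 h later. The series also holds cultures given pools against Atf3, Jun, Stat3, Klf6, Rest or Alyref, untransfected cells at time 0, and cultures transfected with mRNA for GFP, for Atf4, or for Atf4 and Cebpg together, 4 libraries each. Each target was reached with 1 siRNA pool, so changes caused by Atf4 loss cannot be told apart from other effects of that pool. The labels do not say whether the 4 libraries of a group came from separate animals or cultures, and the p-values therefore rest on differences among libraries that may be technical.

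Atf4 is a basic leucine zipper activator whose mRNA is translated more when the initiation factor eIF2 is phosphorylated, the common step of the integrated stress response to amino acid shortage, protein misfolding, haem shortage or double-stranded RNA. As a dimer with C/EBP family proteins it binds C/EBP-ATF composite elements and raises genes for the synthesis, import and tRNA loading of amino acids, together with feedback regulators of the response. In sensory neurons Atf4 belongs to the factors that respond to axon injury, and isolating the neurons for culture cuts their axons.

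Atf4 itself read 588, 582, 606 and 521 CPM (counts divided by the library total, scaled for composition) in the siCONTROL libraries and 124, 103, 91.2 and 66.6 CPM in the siAtf4 libraries. Every siAtf4 library lay far below every control library, and the level was 5.96-fold lower (log2 fold change -2.58 ± 0.13 (SE), edgeR adjusted p = 8.28e-14). At an adjusted p under 0.05, 1028 genes were called (6.91% of those tested): 408 genes were higher with siAtf4 (2.74%) and 620 lower (4.17%), Atf4 included. Most changes were modest: the median called gene was 1.39-fold lower or 1.40-fold higher, 85 genes (0.571%) were at least 2-fold lower and 49 (0.329%) at least 2-fold higher. The median over all genes tested was a log2 fold change of 0.00. The siCONTROL libraries held 3437120 to 6621566 counts and the siAtf4 libraries 4821192 to 6060686.

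**Figure D1:**
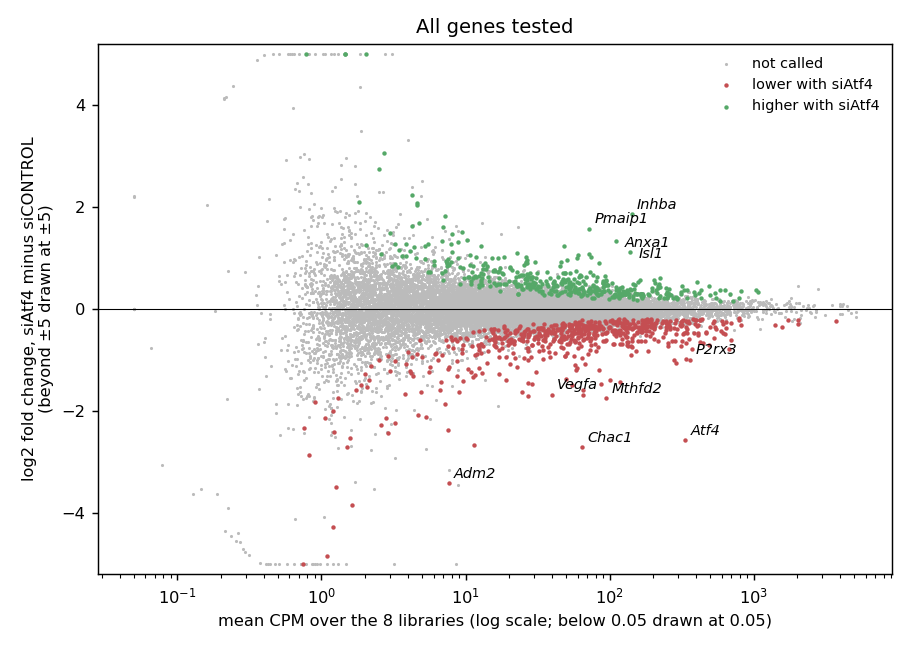
Log2 fold change of siAtf4 minus siCONTROL (vertical axis, values beyond 5 drawn at 5) against mean CPM over the 8 libraries (horizontal log axis), 1 point per gene tested. Red points were lower and green points higher at an adjusted p under 0.05. The strongly expressed genes far below 0 include Atf4, Chac1 and Mthfd2, while Inhba, Pmaip1, Anxa1 and Isl1 lie above it.

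Among genes with a mean of at least 5 CPM and no overlap between the groups, the 15 largest falls named enzymes of amino acid metabolism, stress regulators and secreted proteins. They were Adm2, Chac1, Prr32, Atf4, 4930438A08Rik, Tmem154, Mmp19, Mthfd2, Aldh18a1, Cars, Vegfa, Nupr1, Fam129a, Phgdh and Aldh1l2. Chac1, an enzyme that degrades glutathione, read 122, 108, 129 and 90.2 CPM in the control libraries and 20.1, 17.1, 18.9 and 12.3 CPM with siAtf4. Its groups did not overlap, as for 12.7% of all genes tested, and siAtf4 had a 6.57-fold lower level (log2 fold change -2.72 ± 0.17 (SE), edgeR adjusted p = 1.45e-12). Nupr1, a small stress-induced chromatin protein, read 15.9, 9.7, 17.4 and 11.8 CPM against 5.25, 5.44, 2.88 and 3.91 CPM and was 3.09-fold lower (log2 fold change -1.63 ± 0.26 (SE), edgeR adjusted p = 8.71e-05). Fam129a, also called Niban1, read 34.2, 36.2, 40.8 and 37.1 CPM against 9.99, 12.2, 15.4 and 10.7 CPM. All its siAtf4 libraries were below all its controls (log2 fold change -1.63 ± 0.18 (SE), edgeR adjusted p = 2.24e-07). A pair of poorly characterised genes belonged to the same tail: Prr32 fell by 2.67 and 4930438A08Rik by 2.37 on the log2 scale (edgeR adjusted p = 2.55e-10 and 2.95e-08).

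The composite element bound by ATF4 with C/EBP partners is commonly written TGATGNAA, with N for any base. This motif was searched on both strands, where its other reading is TTNCATCA, in the RefSeq promoters of assembly GRCm38.p6, which run from 250 bases before to 50 bases after each start site. Of the genes tested, 11036 matched a promoter by symbol, and 2.85% of those held the motif (4.51% of all 27025 genes in the promoter table). Among genes lower with siAtf4 the share was 8.08% (40 of 495), and among those at least 2-fold lower it was 20.9% (14 of 67). Genes higher with siAtf4 held it in 3.24% (9 of 278). A match is a run of letters and not a measured binding site. The following stretches come from members of the stress, amino acid and tRNA charging groups that fell. They were picked among genes whose promoter held the motif, so its recurrence in them follows from that choice. Each is 60 bases from upstream of the start site, read 5′ to 3′ along the gene, with the motif in capitals.
Chac1 (chr2:119351023-119351082, plus strand): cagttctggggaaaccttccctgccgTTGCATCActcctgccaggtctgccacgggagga
Nupr1 (chr7:126625547-126625606, minus strand): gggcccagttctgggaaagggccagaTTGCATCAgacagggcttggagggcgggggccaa
Herpud1 (chr8:94386291-94386350, plus strand): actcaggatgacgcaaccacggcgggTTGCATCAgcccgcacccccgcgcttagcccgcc
Vldlr (chr19:27216794-27216853, plus strand): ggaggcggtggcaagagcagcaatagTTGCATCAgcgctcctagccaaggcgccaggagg
Pck2 (chr14:55540137-55540196, plus strand): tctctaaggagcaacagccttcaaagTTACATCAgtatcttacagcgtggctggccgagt
Asns (chr6:7693210-7693269, minus strand): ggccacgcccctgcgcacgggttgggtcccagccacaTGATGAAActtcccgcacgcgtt
Pycr1 (chr11:120643818-120643877, minus strand): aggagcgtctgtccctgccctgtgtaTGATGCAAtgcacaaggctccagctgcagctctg
Aars (chr8:111033704-111033763, plus strand): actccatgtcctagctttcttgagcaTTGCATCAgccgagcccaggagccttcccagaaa
Gars (chr6:55037941-55038000, plus strand): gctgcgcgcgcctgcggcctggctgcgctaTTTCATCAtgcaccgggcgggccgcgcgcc
Tars (chr15:11399659-11399718, minus strand): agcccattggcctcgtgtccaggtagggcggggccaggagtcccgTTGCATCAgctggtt

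The motif in these stretches begins 193 bases before the start site in Chac1, 112 in Herpud1 and 112 in Aars, but 23 in Asns and 15 in Tars. In the tRNA synthetase lists, 5 of 12 cytosolic enzymes with a promoter held it and 0 of 14 mitochondrial ones. It was found in 8 of 22 stress response effectors and in 0 of 18 serine and one-carbon genes, which says only that these letters are not in those windows. The more restricted letters TGATGCAA were held by 0.77% of the genes tested and by 11.94% of those at least 2-fold lower.

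Serine is made from a glycolytic intermediate by Phgdh, Psat1 and Psph in turn, and its one-carbon unit is passed on in mitochondria by Shmt2, Mthfd2, Mthfd1l and Aldh1l2. All 7 of these genes fell. Mthfd2 read 168, 146, 156 and 118 CPM in the control libraries and 53.5, 42, 38.4 and 39.8 CPM with siAtf4, a 3.37-fold lower level (log2 fold change -1.75 ± 0.12 (SE), edgeR adjusted p = 6.25e-12). Psat1 read 167, 166, 189.7 and 167 CPM against 73.3, 63.9, 57.1 and 62.7 CPM (log2 fold change -1.42 ± 0.08 (SE), edgeR adjusted p = 8.84e-14). Both genes were lower in each siAtf4 library than in any control library. Phgdh read 92.9, 111, 96.7 and 95 CPM against 36.6, 31.7, 28.8 and 34.5 CPM (log2 fold change -1.59 ± 0.12 (SE), edgeR adjusted p = 9.5e-11). The cytosolic enzyme Mthfd1 was not called, at 24.3, 19.6, 21.2 and 21.8 CPM against 21.8, 19.4, 23 and 28.4 CPM with overlapping groups (log2 fold change 0.10, edgeR adjusted p = 0.788). Of the 22 genes of this list that were tested, 8 fell and 14 were not called, and the list's median log2 fold change was -0.22.

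Of 17 genes for asparagine, proline, alanine, aspartate, glutamate and branched-chain amino acids, 8 fell and 9 were not called (median log2 fold change -0.30). Asns, which makes asparagine, read 393, 371, 392 and 338 CPM in the control libraries and 199, 199, 175 and 174 CPM with siAtf4 (log2 fold change -1.0005 ± 0.06 (SE), edgeR adjusted p = 6.32e-13). Aldh18a1, the entry enzyme of proline synthesis, read 45.9, 40.5, 48.2 and 31.8 CPM against 13.2, 14.4, 11.3 and 12.1 CPM (log2 fold change -1.70 ± 0.13 (SE), edgeR adjusted p = 1.63e-10). Neither gene's groups overlapped. Pycr1 and Pycrl, enzymes of the last step of proline synthesis, fell as well, with log2 fold changes of -1.24 and -0.42 (edgeR adjusted p = 0.00465 and 0.00558). The difference between them was not tested. Gpt2, the mitochondrial alanine aminotransferase, was 1.98-fold lower (log2 fold change -0.98 ± 0.15 (SE), edgeR adjusted p = 6.89e-05), and Bcat1, the cytosolic branched-chain aminotransferase, 1.76-fold lower (log2 fold change -0.82 ± 0.14 (SE), edgeR adjusted p = 0.00019). The calls on Got1 (log2 fold change -0.28, edgeR adjusted p = 0.0229) and Bcat2 (log2 fold change -0.39, edgeR adjusted p = 0.0245) were not kept with every single library left out. The first was lost without siAtf4 replicates 2 or 3 or siCONTROL replicates 2 or 4. The second was lost without siAtf4 replicates 1, 3 or 4 or siCONTROL replicates 3 or 4. Got2 and Glud1, not called, had log2 fold changes of -0.07 and 0.03.

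In transsulfuration and glutathione metabolism, 5 of 15 genes fell: Chac1, Cth, Gss, Gclm and Gstp1. Cth, which releases cysteine from cystathionine, read only 3.6, 5.01, 6.66 and 4.17 CPM in the control libraries and 0.169, 1.36, 1.44 and 0.71 CPM with siAtf4, without overlap (log2 fold change -2.43 ± 0.38 (SE), edgeR adjusted p = 6.52e-05). Gss, glutathione synthetase, was 1.39-fold lower (log2 fold change -0.48 ± 0.09 (SE), edgeR adjusted p = 0.000535). Gclm, a subunit of the enzyme of the first step, had the smaller difference of -0.40 on the log2 scale (edgeR adjusted p = 0.0337), a call lost without siAtf4 replicates 1, 2, 3 or 4 or siCONTROL replicates 1, 2 or 3. Slc7a11, the cystine importer, read 9.59, 12.2, 13.8 and 17.4 CPM against 13.4, 6.41, 10.9 and 11.5 CPM, overlapping, and was not called (log2 fold change -0.33, edgeR adjusted p = 0.565).

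Among 28 amino acid transporters 10 fell and 1 rose (median log2 fold change -0.17). Slc7a5, the light chain of a large neutral amino acid exchanger, read 128, 123, 139 and 119 CPM in the control libraries and 48.2, 48.6, 47.4 and 39.3 CPM with siAtf4 (log2 fold change -1.47 ± 0.08 (SE), edgeR adjusted p = 2.34e-13). Its heavy chain partner Slc3a2 read 327, 341, 339 and 337 CPM against 259.9, 218, 247 and 226 CPM, a smaller fall of 0.50 on the log2 scale (edgeR adjusted p = 4.93e-05). Each siAtf4 library was below each control library for both chains. The cationic amino acid importers Slc7a1 and Slc7a3 were 2.3-fold and 2.78-fold lower (edgeR adjusted p = 1.59e-12 and 4.11e-10). Slc1a4, a transporter of serine and other small neutral amino acids, read 76.1, 75.9, 76 and 77.6 CPM against 46.7, 45.6, 42.3 and 45.8 CPM (log2 fold change -0.76 ± 0.06 (SE), edgeR adjusted p = 1.72e-10). The control values of Slc1a4 lay within 2 CPM of each other. The glutamine carriers Slc1a5, Slc38a1 and Slc38a2 and the glycine transporter Slc6a9 also fell, with log2 fold changes from -0.28 (Slc38a2) to -1.15 (Slc6a9); the call on Slc38a2 was lost without siAtf4 replicate 1 or siCONTROL replicate 3. The gene that rose was Slc6a15, a neutral amino acid transporter of neurons, from 60.5, 68.9, 63.6 and 59.3 CPM to 88.4, 83.1, 76.4 and 88.5 CPM (log2 fold change 0.41 ± 0.10 (SE), edgeR adjusted p = 0.011).

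Aminoacyl-tRNA synthetases load each amino acid onto its tRNA, and most have separate genes for the cytosol and for mitochondria. Of 20 cytosolic synthetases 13 fell (median log2 fold change -0.66), and their summed level was 4088 to 4548 CPM in the control libraries against 2736 to 3031 CPM with siAtf4. Cars, for cysteine, read 116, 96.4, 103 and 83.9 CPM against 36.2, 30.9, 28.3 and 27.5 CPM and had the largest fall (log2 fold change -1.69 ± 0.10 (SE), edgeR adjusted p = 2.69e-13). Nars, for asparagine, read 862, 925, 767 and 873 CPM against 537, 499.8, 499.5 and 448 CPM (log2 fold change -0.79 ± 0.07 (SE), edgeR adjusted p = 1.49e-09). Both genes separated the groups completely. Tars was 2.12-fold lower, Yars 1.88-fold, Mars 1.83-fold, Wars 1.78-fold, Sars 1.72-fold and Gars 1.62-fold (edgeR adjusted p from 4.93e-05 for Mars to 1.32e-10 for Wars). Lars, Aars, Rars, Eprs and Iars fell by 1.39-fold to 1.60-fold, with the call on Lars lost without siAtf4 replicates 3 or 4. The 7 not called were Qars, Hars, Dars, Kars, Farsa, Farsb and Vars, with log2 fold changes from -0.43 (Vars) to 0.16 (Dars).

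The mitochondrial synthetases gave a different count. By the edgeR test 0 of 17 were called (median log2 fold change -0.14), with 2 higher and 1 lower at an unadjusted p under 0.05 and 0 called by DESeq2 or limma. Their summed level was 396 to 731 CPM in the control libraries and 393 to 536 CPM with siAtf4, overlapping ranges. The difference between the 2 families was not tested. Xpot, which exports tRNA from the nucleus, fell with the cytosolic enzymes, from 104, 95.5, 94.3 and 80.0 CPM to 56, 56.1, 47.7 and 53.5 CPM (log2 fold change -0.81 ± 0.13 (SE), edgeR adjusted p = 9.69e-05).

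**Figure D2:**
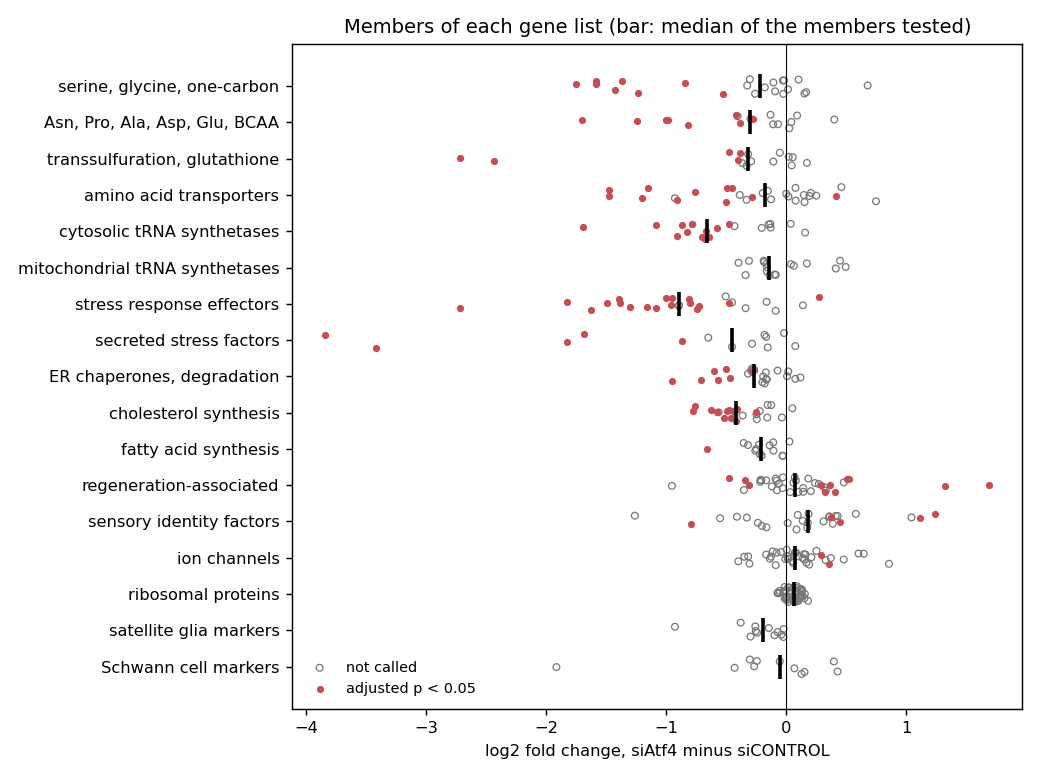
Log2 fold change of siAtf4 minus siCONTROL for every tested member of 17 gene lists, 1 point per gene, red where the adjusted p was under 0.05, with a bar at each list's median. The medians of the cytosolic tRNA synthetases (-0.66) and stress response effectors (-0.89) lie furthest to the left, and the mitochondrial synthetases are all open points.

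Of 26 effectors and regulators of the integrated stress response, 17 fell and 1, Tspyl2, rose, the latter a call lost without siAtf4 replicates 1 or 3 or siCONTROL replicates 1 or 3 (median log2 fold change -0.89); Chac1 is counted here and among the glutathione genes. Pck2, the mitochondrial enzyme that makes phosphoenolpyruvate, read 77.3, 81.4, 94.3 and 70.2 CPM in the control libraries and 30.3, 31.9, 31.8 and 21.3 CPM with siAtf4 (log2 fold change -1.49 ± 0.13 (SE), edgeR adjusted p = 1.83e-09). Sesn2, an inhibitor of the growth kinase mTORC1 under leucine shortage, read 36.3, 35.5, 37.4 and 35.2 CPM against 17.4, 16.3, 20.7 and 17.6 CPM (log2 fold change -1.004 ± 0.09 (SE), edgeR adjusted p = 1.38e-09). The groups did not overlap for either gene. Eif4ebp1, a repressor of cap-dependent translation, was 2.23-fold lower (log2 fold change -1.16 ± 0.13 (SE), edgeR adjusted p = 1.82e-07), and Vldlr, a lipoprotein receptor, 2.62-fold lower (log2 fold change -1.39 ± 0.14 (SE), edgeR adjusted p = 7.11e-08). Trib3, a pseudokinase that dampens Atf4 activity, read 24.6, 31.3, 31.4 and 23.9 CPM against 16.1, 13.4, 12.5 and 10.7 CPM (log2 fold change -1.09 ± 0.15 (SE), edgeR adjusted p = 8.9e-06). Herpud1, which serves protein degradation at the endoplasmic reticulum (ER), was 1.94-fold lower (log2 fold change -0.95 ± 0.13 (SE), edgeR adjusted p = 9.12e-06).

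Several transcription factors of the response were lower as well. Atf5 read 429, 365, 436 and 339 CPM against 261, 226, 246 and 214 CPM (log2 fold change -0.73 ± 0.09 (SE), edgeR adjusted p = 4.2e-06). Cebpb was 1.94-fold lower (log2 fold change -0.96 ± 0.18 (SE), edgeR adjusted p = 0.000764). Ddit3, the stress factor CHOP, read 400.1, 392, 444 and 373 CPM against 305, 282, 300.5 and 268 CPM, a 1.39-fold lower level whose groups did not overlap (log2 fold change -0.48 ± 0.12 (SE), edgeR adjusted p = 0.0104). Jdp2, a repressor of AP-1 sites, was 1.74-fold lower (log2 fold change -0.80 ± 0.15 (SE), edgeR adjusted p = 0.000795). Atf3 read 1285, 1353, 1096 and 1250.4 CPM against 1196, 1244, 1096 and 1157 CPM, with overlapping groups (log2 fold change -0.09, edgeR adjusted p = 0.693), and Cebpg was not called either (log2 fold change -0.50, edgeR adjusted p = 0.438).

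Upstream of Atf4, 3 of 18 genes for the eIF2 kinases, eIF2 subunits and eIF2 phosphatases fell, beside 4.17% of all genes tested. Eif2s2, the beta subunit of eIF2, read 187, 164, 178 and 187 CPM in the control libraries and 121, 99.4, 101 and 106 CPM with siAtf4 (log2 fold change -0.74 ± 0.06 (SE), edgeR adjusted p = 7.36e-10), and every siAtf4 library was lower. Ppp1r15b, the constitutive phosphatase subunit, was 1.43-fold lower (log2 fold change -0.51 ± 0.09 (SE), edgeR adjusted p = 0.00024), whereas the inducible subunit Ppp1r15a was not called (log2 fold change -0.10, edgeR adjusted p = 0.759). Of the kinases, Eif2ak1 had a log2 fold change of -0.29 (edgeR adjusted p = 0.0138), a call lost without siCONTROL replicate 1. Eif2ak3 and Eif2ak4 had log2 fold changes of -0.15 and -0.18 and were not called.

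Secreted factors of stressed cells were among the largest falls, with 5 of 13 called lower. Adm2, a peptide hormone of the calcitonin family, read 14.4, 15.3, 15.9 and 10.4 CPM in the control libraries and 2.37, 1.36, 1.03 and 0.355 CPM with siAtf4 (log2 fold change -3.42 ± 0.29 (SE), edgeR adjusted p = 1.13e-09). Vegfa, an angiogenic growth factor, read 61.4, 71.8, 56.4 and 52.6 CPM against 16.4, 15.5, 26.5 and 17.4 CPM (log2 fold change -1.68 ± 0.16 (SE), edgeR adjusted p = 2.08e-08). The groups were separate for both, although 1 siAtf4 library stood above the other 3 for Vegfa. Gdf15, a cytokine that acts on appetite, was 1.82-fold lower (log2 fold change -0.86 ± 0.19 (SE), edgeR adjusted p = 0.00363). Fgf21, a metabolic hormone, was near the limit of detection, at 3, 2.19, 2.05 and 5.1 CPM against 0, 0.388, 0.411 and 0 CPM, so that 2 of the siAtf4 libraries held no count (edgeR adjusted p = 0.00613). Stc2, a glycoprotein hormone at 1.5, 0.783, 1.54 and 1.85 CPM against 0.169, 0.388, 0.616 and 0.355 CPM, was called (log2 fold change -1.83, edgeR adjusted p = 0.027), but not by DESeq2, and the call was lost without siAtf4 replicates 1, 2 or 4 or siCONTROL replicates 1, 3 or 4.

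Among 25 ER chaperones, folding enzymes and degradation factors 8 fell (median log2 fold change -0.27). Hspa5, the major ER chaperone BiP, read 853, 809.7, 834 and 833 CPM in the control libraries and 561, 586, 526 and 523 CPM with siAtf4 (log2 fold change -0.60 ± 0.07 (SE), edgeR adjusted p = 1.13e-06). Atf6, a membrane-bound sensor of misfolded protein, read 33.3, 36.9, 35.4 and 37.1 CPM against 22.3, 21.6, 21.4 and 21.8 CPM (log2 fold change -0.71 ± 0.07 (SE), edgeR adjusted p = 6.84e-08). The siAtf4 values of Atf6 were within 1 CPM of each other and all below the controls. Calr, Dnajb9 and Derl1 fell by 0.47, 0.57 and 0.50 on the log2 scale, while Hsp90b1 was not called (log2 fold change -0.18, edgeR adjusted p = 0.115). In mitochondria, 3 of 15 chaperones and proteases fell, beside 4.17% of all genes tested. They were the chaperones Hspa9 (log2 fold change -0.67 ± 0.04 (SE), edgeR adjusted p = 2.08e-12) and Hspd1 (log2 fold change -0.36 ± 0.06 (SE), edgeR adjusted p = 0.000141) and the protease Lonp1 (log2 fold change -0.62 ± 0.08 (SE), edgeR adjusted p = 1.89e-06). Hspa9 read 554, 544, 559 and 532 CPM against 349.9, 351, 335 and 345 CPM.

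Cholesterol synthesis and uptake, controlled by the transcription factor Srebf2, had 12 of 23 genes that fell (median log2 fold change -0.42). Mvd, a mevalonate pathway enzyme, read 64.7, 59.9, 62 and 51.9 CPM in the control libraries and 34.2, 40.0, 31 and 35.3 CPM with siAtf4, and every siAtf4 library was lower (log2 fold change -0.76 ± 0.11 (SE), edgeR adjusted p = 3.49e-05). Stard4, a sterol carrier, was 1.71-fold lower (log2 fold change -0.77 ± 0.16 (SE), edgeR adjusted p = 0.00253), and Hmgcs1, at the start of the pathway, 1.39-fold lower (edgeR adjusted p = 9.13e-05). In fatty acid synthesis 1 of 14 genes fell, beside 4.17% of all genes tested. It was Acss2, which makes cytosolic acetyl-CoA (log2 fold change -0.66 ± 0.10 (SE), edgeR adjusted p = 6.97e-05).

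**Figure D3:**
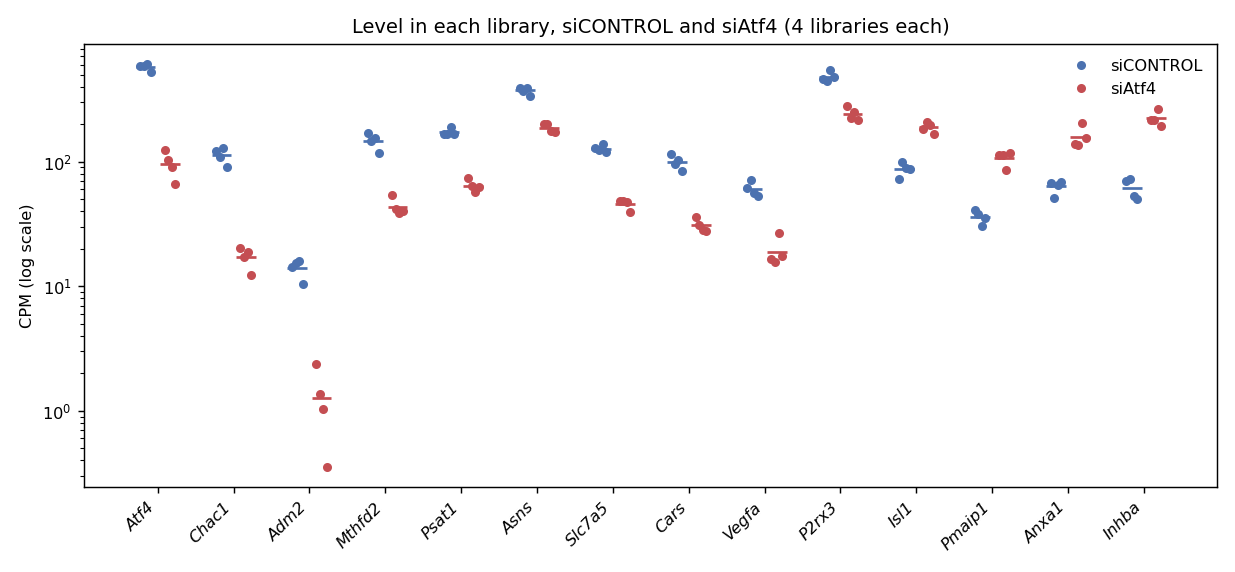
CPM on a log axis for 14 genes in each of the 4 siCONTROL libraries (blue) and 4 siAtf4 libraries (red), with a short line at each group's mean. For each gene shown the groups are separate: Atf4, Chac1, Adm2, Mthfd2, Psat1, Asns, Slc7a5, Cars, Vegfa and P2rx3 are lower with siAtf4, and Isl1, Pmaip1, Anxa1 and Inhba are higher.

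Genes that rose included a secreted ligand, an apoptosis gene and a homeodomain factor. The 15 largest rises by the same rule were Inhba, Slc28a2, Pmaip1, Gm17019, Fndc9, 2500002B13Rik, Anxa1, Mrnip, Zfp804a, Pthlh, Snhg5, Hoxa4, Drc1, Lpar3 and Isl1. Inhba, the beta A subunit of activin, a secreted ligand of the TGF-beta family, read 69.8, 72.1, 52.8 and 49.8 CPM in the control libraries and 217, 214, 267 and 193 CPM with siAtf4 (log2 fold change 1.87 ± 0.17 (SE), edgeR adjusted p = 6e-09). Pmaip1, the pro-apoptotic protein Noxa, read 41.1, 37.9, 30.6 and 35.5 CPM against 114, 113, 85.9 and 117 CPM (log2 fold change 1.57 ± 0.17 (SE), edgeR adjusted p = 2.13e-07). Anxa1, a phospholipid-binding protein that limits inflammation, read 67.7, 51.5, 65.1 and 68.4 CPM against 139, 136, 203 and 154 CPM (log2 fold change 1.33 ± 0.19 (SE), edgeR adjusted p = 2.71e-05). All 4 siAtf4 libraries exceeded all 4 controls for these genes. Slc28a2, a nucleoside transporter, was 3.56-fold higher at a low level (log2 fold change 1.83 ± 0.33 (SE), edgeR adjusted p = 0.000452). Of those with control means at or under 5.06 CPM, 5 had calls that were not kept with every single library left out: 2500002B13Rik was lost without siAtf4 replicates 1, 3 or 4 or siCONTROL replicates 1, 2 or 3, Pthlh without siAtf4 replicates 2 or 4 or siCONTROL replicates 1 or 3, Gm17019 without siAtf4 replicate 1 or siCONTROL replicate 1, Lpar3 without siAtf4 replicate 3 and Hoxa4 without siCONTROL replicate 3.

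Among 25 genes of activin, TGF-beta and BMP signalling, Inhba and Smad1 rose, beside 2.74% of all genes tested. Smad1, a transcription factor downstream of BMP receptors that is linked to sensory axon growth, read 71.3, 66.8, 70.6 and 65.8 CPM against 92.6, 91.3, 85.2 and 94.5 CPM (log2 fold change 0.41 ± 0.07 (SE), edgeR adjusted p = 0.000494). Of 21 genes of the p53 pathway and apoptosis 2 rose and 2 fell, beside 2.74% higher and 4.17% lower over all genes tested. Ccng1, a p53 target, rose from 126, 111, 137 and 146 CPM to 182, 176, 201 and 214 CPM (log2 fold change 0.57 ± 0.09 (SE), edgeR adjusted p = 7.77e-05), and Perp fell (log2 fold change -0.70 ± 0.14 (SE), edgeR adjusted p = 0.00123). Cdkn1a had a log2 fold change of -0.17 (edgeR adjusted p = 0.0438), with overlapping groups and a call lost without siAtf4 replicates 1, 2 or 4 or siCONTROL replicates 1, 2 or 3. Of 15 host genes of small nucleolar RNAs 3 rose: Snhg5, from 34.5, 27.4, 21 and 32 CPM to 68.7, 69, 81.5 and 50.8 CPM (log2 fold change 1.25 ± 0.18 (SE), edgeR adjusted p = 2.41e-05), Snhg12 (log2 fold change 0.70, edgeR adjusted p = 0.0123) and Gas5 (log2 fold change 0.38, edgeR adjusted p = 0.0229). The call on Snhg12 was lost without siAtf4 replicate 3, and that on Gas5 without siAtf4 replicates 3 or 4 or siCONTROL replicates 1, 3 or 4.

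Identity factors of sensory neurons gave 4 rises and 1 fall among 27 tested (median log2 fold change 0.18), beside 2.74% higher and 4.17% lower over all genes. Isl1, a LIM homeodomain factor that specifies sensory neurons, read 72.8, 98.4, 88.5 and 86.9 CPM in the control libraries and 181, 209, 197 and 166 CPM with siAtf4 (log2 fold change 1.11 ± 0.14 (SE), edgeR adjusted p = 1.38e-06). Pou4f1, which acts with Isl1, rose from 132, 117, 109 and 132 CPM to 155, 158, 154 and 167 CPM (log2 fold change 0.38 ± 0.09 (SE), edgeR adjusted p = 0.00613). Neither gene's groups overlapped. Ebf1 also rose (log2 fold change 0.45 ± 0.08 (SE), edgeR adjusted p = 0.000175), whereas Pou4f3, a relative of Pou4f1, fell from 14.4, 12.7, 10.9 and 9.73 CPM to 6.26, 6.99, 7.8 and 6.39 CPM (log2 fold change -0.79 ± 0.16 (SE), edgeR adjusted p = 0.00109). Of 16 pan-neuronal markers 4 rose, Isl1 and Pou4f1 among them; the others were Rbfox3, the nuclear protein NeuN, from 56.6, 63.5, 45.1 and 48.7 CPM to 85.7, 81.6, 88.1 and 77.4 CPM (log2 fold change 0.64 ± 0.09 (SE), edgeR adjusted p = 2.11e-05), and Syt1 (log2 fold change 0.27, edgeR adjusted p = 0.0337). The call on Syt1 was lost without siAtf4 replicates 2, 3 or 4 or siCONTROL replicates 1, 2 or 3.

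Among 22 nociceptor genes 2 rose and 3 fell, beside 2.74% higher and 4.17% lower over all genes tested. P2rx3, the ATP-gated channel of nociceptors, read 459, 447, 546 and 475 CPM in the control libraries and 282, 222, 252 and 214 CPM with siAtf4, so that every siAtf4 library was lower (log2 fold change -0.99 ± 0.13 (SE), edgeR adjusted p = 2.54e-06). Calcb, a calcitonin gene-related peptide, was 1.39-fold lower (log2 fold change -0.47, edgeR adjusted p = 0.0071), a call lost without siCONTROL replicate 3. Ret, the GDNF family coreceptor, was 1.3-fold higher (log2 fold change 0.38, edgeR adjusted p = 0.0158), a call lost without siCONTROL replicate 3 too. Among 37 ion channels Scn9a and Cacna2d1 rose, beside 2.74% of all genes tested. Scn9a, the sodium channel Nav1.7, rose from 94.7, 92.3, 106 and 105 CPM to 119, 134, 126 and 133 CPM (log2 fold change 0.36 ± 0.08 (SE), edgeR adjusted p = 0.00202). Of 20 genes of large-diameter sensory neurons 0 were called by edgeR, DESeq2 or limma, and 1 was higher at an unadjusted p under 0.05.

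Regeneration-associated genes, which rise in sensory neurons after axon injury, gave 8 rises and 3 falls among 38 (median log2 fold change 0.08). Over all genes tested 2.74% were higher and 4.17% lower. Sprr1a, a growth-promoting injury gene, read 362, 389, 304 and 272 CPM in the control libraries and 523, 486, 472 and 427 CPM with siAtf4, without overlap (log2 fold change 0.52, edgeR adjusted p = 0.0381), a call lost without siAtf4 replicates 1, 2 or 3 or siCONTROL replicates 1, 3 or 4. Basp1, a growth cone membrane protein, rose from 389.6, 395, 381 and 337 CPM to 540.4, 442, 479 and 478 CPM (log2 fold change 0.37 ± 0.09 (SE), edgeR adjusted p = 0.00697). Arg1, the arginase that starts polyamine synthesis, rose from 0.3, 2.35, 3.08 and 3.01 CPM to 5.76, 7.38, 7.6 and 8.7 CPM (log2 fold change 1.69 ± 0.38 (SE), edgeR adjusted p = 0.00468). Gpr151, an orphan receptor gene induced by injury, fell (log2 fold change -0.48 ± 0.10 (SE), edgeR adjusted p = 0.00121), as did Plaur, the urokinase receptor (log2 fold change -0.34 ± 0.07 (SE), edgeR adjusted p = 0.00295), and Tubb6, a beta tubulin (log2 fold change -0.31, edgeR adjusted p = 0.0167), the last lost without siAtf4 replicate 3 or siCONTROL replicate 2. The familiar growth genes Gap43, Sox11 and Jun had log2 fold changes of 0.24, 0.10 and 0.21 and were not called (edgeR adjusted p = 0.133, 0.706 and 0.138), although edgeR called Gap43 higher when siAtf4 and siCONTROL were fitted alone.

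Markers of other cells that a ganglion culture can hold were present in both groups. The summed level of 12 satellite glia markers was 809.6 to 955 CPM in the control libraries and 666 to 820.1 CPM with siAtf4, ranges that overlap slightly, and each of the 12 estimates was below 0 (median log2 fold change -0.19). For 11 Schwann cell markers the sums were 1644 to 1945 CPM and 1742 to 1972 CPM, for 8 fibroblast markers 141 to 288 CPM and 164 to 203 CPM, and for 11 endothelial and mural markers 338 to 396 CPM and 310.1 to 393 CPM. The 8 fibroblast estimates were also below 0 (median log2 fold change -0.28), as were 9 of the 11 endothelial and mural ones (median -0.17) and 6 of the 11 Schwann cell ones (median -0.05). By edgeR 0 of these 42 genes were called; at an unadjusted p under 0.05, 1 Schwann cell marker was higher, and 2 satellite glia, 2 Schwann cell and 1 fibroblast marker were lower. DESeq2 called 1 Schwann cell marker lower and limma called 0. Of 12 macrophage and lymphocyte markers, 4 (C1qa, C1qc, Ptprc and Cd3e) had no count in any of the 8 libraries, and 3 (Cd68, Aif1 and Csf1r) passed the filter on low counts. The summed level of those 3 was 27.3 to 45.4 CPM in the control libraries and 32.7 to 45.5 CPM with siAtf4, overlapping ranges, and 0 were called by edgeR, DESeq2 or limma or had an unadjusted p under 0.05. The sums of 16 pan-neuronal markers were 16732 to 21192 CPM and 18143 to 20802 CPM, and those of 13 mitochondrially encoded genes 23044 to 36394 CPM and 26263 to 42612 CPM, both overlapping. The part of glial content in the named changes was not tested, and in these bulk libraries fewer cells of a type cannot be told apart from less RNA per cell.

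The other 6 knockdowns show whether a level with siAtf4 also differed from cultures given another targeting pool. This contrast, of siAtf4 against the mean of the 6, uses the same siAtf4 libraries but not the control libraries, and called 1568 genes higher (10.5%) and 1380 lower (9.28%). Chac1 averaged 17.1 ± 3.46 CPM (SD, n = 4) with siAtf4, and the means of the other knockdowns ran from 102 CPM (siKlf6) to 178 CPM (siAtf3). The difference from their mean was -2.86 on the log2 scale (edgeR adjusted p = 6.46e-15). Mthfd2 averaged 43.4 ± 6.88 CPM (SD, n = 4), with the others between 136 (siKlf6) and 158 CPM (siAtf3), and differed by -1.78 (edgeR adjusted p = 3.9e-14). For Nars the siAtf4 mean was 496 ± 36.6 CPM (SD, n = 4) and the others lay between 831 (siKlf6) and 972 CPM (siStat3). These 3 genes, taken from those that fell with siAtf4, were therefore lowest with siAtf4 of all 8 siRNA groups, control included. So were 524 of the 619 genes called lower, Atf4 left out (84.7%), and 17.2% of all genes tested.

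For the genes that rose, the same groups gave the following levels. Inhba averaged 223 ± 31.1 CPM (SD, n = 4) with siAtf4, 100.4 ± 18 CPM with siKlf6, 33.2 ± 7.49 CPM with siAtf3 and 15.6 ± 2.69 CPM with siJun. Its siAtf4 level was above the mean of the 6 by 2.20 on the log2 scale (edgeR adjusted p = 5.06e-15). Anxa1 averaged 158 ± 30.9 CPM (SD, n = 4) with siAtf4 and between 23.6 (siJun) and 67 CPM (siRest) in the others, a difference of 2.06 (edgeR adjusted p = 5.58e-13). Isl1 averaged 189 ± 18.7 CPM (SD, n = 4), with the next highest mean, 118 ± 24.8 CPM, in siKlf6 (difference from the mean of the 6 1.26, edgeR adjusted p = 2.36e-11). Of the 38 regeneration-associated genes, 23 were higher with siAtf4 than the mean of the 6 and 1 was lower. The 6 include knockdowns of Atf3 and Jun, in which Inhba and Anxa1 averaged less than in siCONTROL (61.2 and 63.2 CPM).

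**Figure D4:**
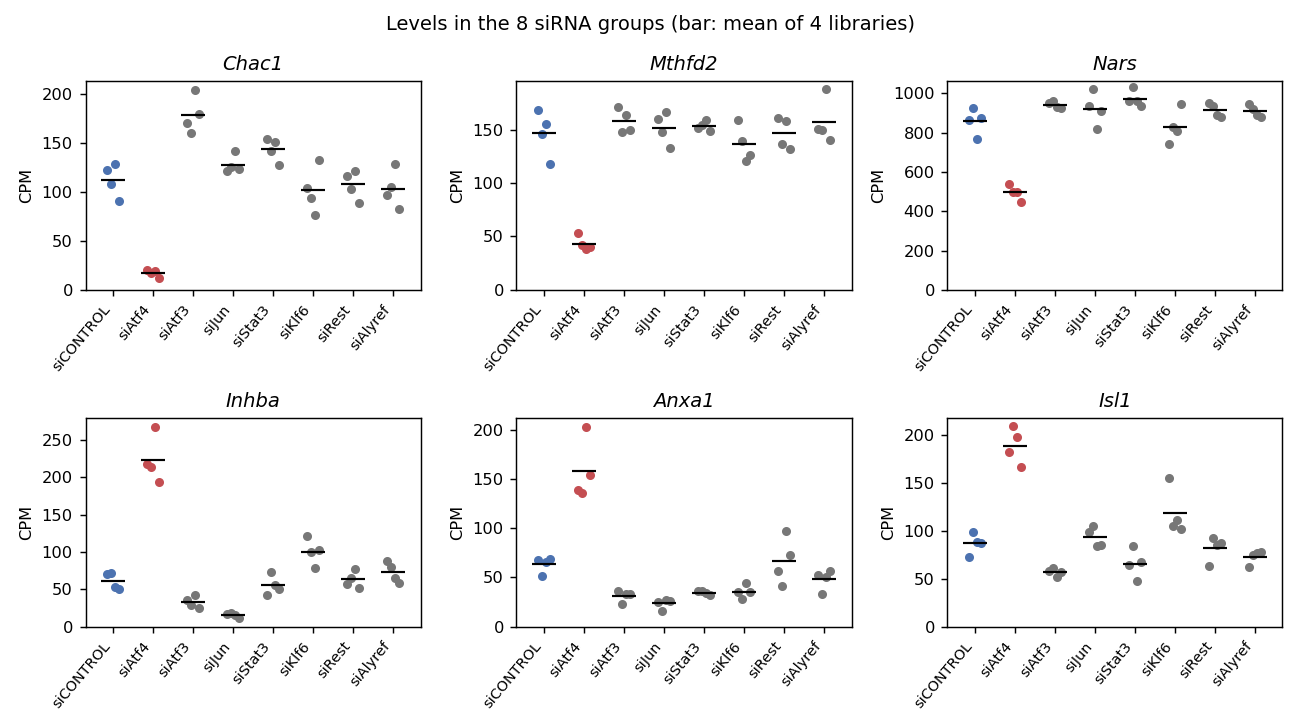
CPM of 6 genes in the 8 siRNA groups, 1 point per library and a bar at each group's mean; axes start at 0. The siAtf4 libraries (red) are the lowest for Chac1, Mthfd2 and Nars and the highest for Inhba, Anxa1 and Isl1, with siCONTROL in blue and the other knockdowns in grey.

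A second set of libraries asked what the same genes did when Atf4 was added: cultures transfected with Atf4 mRNA against cultures given GFP mRNA, 4 each, with no library shared with the knockdown. Atf4 read 647, 705, 641 and 574 CPM with GFP mRNA and 8893, 14334, 18305 and 15048 CPM with Atf4 mRNA (log2 fold change 4.46 ± 0.32 (SE), edgeR adjusted p = 6.83e-06), a count that does not tell the added mRNA from that of the cells. In this comparison 382 genes were higher (2.76% of 13857 tested) and 289 lower (2.09%). Of the 80 tested genes, other than Atf4, that were at least 2-fold lower with siAtf4, 23 were higher with Atf4 mRNA (28.75%) and 1 was lower, and 65 had an estimate above 0. Over the whole set of genes lower with siAtf4, 615 were tested with Atf4 mRNA, and 53 were higher (8.62%) and 22 lower (3.58%), while the median log2 fold change was 0.01. Of 398 genes higher with siAtf4, 31 were lower (7.79%), 5 higher (1.26%), and the median was -0.12.

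These counts changed with the mRNA libraries included. Whichever single library was left out, the 53 became 31 to 43, the 31 that were lower 16 to 28 and the 5 became 1 to 4. The 22 ranged from 11 to 23. Atf4 mRNA and GFP mRNA were also fitted alone, without and with the replicate number as a block. Over these fits and the left-out libraries, the 53 ranged from 31 to 61 and the 22 from 11 to 28. The 31 that were lower ranged from 16 to 35 and the 5 from 1 to 5. The 53 became 31, 34 and 31 without Atf4 mRNA replicate 2, Atf4 mRNA replicate 4 or GFP mRNA replicate 1, and the 31 that were lower became 16, 17 and 17 without the same 3 libraries. The 22 became 13, 13 and 12 without Atf4 mRNA replicates 2, 3 and 4, and 11 and 14 without GFP mRNA replicates 2 and 4. The 5 became 1 without Atf4 mRNA replicate 2 or 4 or GFP mRNA replicate 2 or 4, 2 without GFP mRNA replicate 1, and 3 without Atf4 mRNA replicate 1 or GFP mRNA replicate 3.

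Among the stress and amino acid genes, some were called with added Atf4 and others were not. Cth read 6.5, 8.32, 8.04 and 7.1 CPM with GFP mRNA and 37, 38.3, 38.1 and 36.2 CPM with Atf4 mRNA, well apart (log2 fold change 2.31 ± 0.13 (SE), edgeR adjusted p = 7.6e-07). Sesn2 read 43.2, 47.5, 41 and 43.3 CPM against 90.8, 116, 91.6 and 119.9 CPM (log2 fold change 1.26 ± 0.11 (SE), edgeR adjusted p = 1.93e-05). Chac1 read 139.6, 151, 148 and 145 CPM against 209, 215, 224 and 204 CPM (log2 fold change 0.55 ± 0.08 (SE), edgeR adjusted p = 0.00147). Adm2, Slc7a3, Aldh1l2, Herpud1, Vldlr and Vegfa were also higher, with log2 fold changes of 0.87, 0.83, 0.95, 0.81, 0.61 and 0.57, as was Hk2, the first enzyme of glycolysis (log2 fold change 1.06 ± 0.10 (SE), edgeR adjusted p = 7.16e-05). Slc7a11, not called in the knockdown, read 21, 11.6, 20.2 and 19.7 CPM against 35.4, 33.5, 47.8 and 45.9 CPM (log2 fold change 1.17 ± 0.18 (SE), edgeR adjusted p = 0.0029).

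Asns, not called here, read 377, 426, 403 and 410.3 CPM with GFP mRNA and 427, 420.0, 458 and 430.2 CPM with Atf4 mRNA (log2 fold change 0.10 ± 0.06 (SE), edgeR adjusted p = 0.36). Mthfd2 read 165, 167, 181 and 145 CPM against 163, 161, 178 and 139.8 CPM, overlapping (log2 fold change -0.03 ± 0.09 (SE), edgeR adjusted p = 0.883). Psat1 and Phgdh had log2 fold changes of -0.17 and 0.33 and were not called (edgeR adjusted p = 0.132 and 0.0862). Of the 20 cytosolic tRNA synthetases edgeR called 0 with Atf4 mRNA, and the list's median was -0.06, against -0.66 in the knockdown. At an unadjusted p under 0.05, 1 of the 20 was higher and 5 were lower.

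Inhba, Pmaip1 and Anxa1, which rose in the knockdown, were lower with added Atf4. Inhba read 61.6, 55.3, 63.9 and 41.2 CPM with GFP mRNA and 32.3, 21.8, 14.2 and 19.9 CPM with Atf4 mRNA (log2 fold change -1.34 ± 0.24 (SE), edgeR adjusted p = 0.00628), Pmaip1 47.4, 44.4, 28.5 and 47.4 CPM against 26.2, 18.3, 13.4 and 18.1 CPM (log2 fold change -1.15 ± 0.20 (SE), edgeR adjusted p = 0.00584) and Anxa1 43.8, 32.6, 46.4 and 52.9 CPM against 30.0, 19.1, 31.8 and 28.3 CPM (log2 fold change -0.69 ± 0.17 (SE), edgeR adjusted p = 0.0332). The groups were separate for each. Sprr1a fell from 358, 351, 328 and 298 CPM to 141, 153, 110.0 and 116 CPM (log2 fold change -1.36 ± 0.11 (SE), edgeR adjusted p = 1.27e-05), and 15 of 37 regeneration-associated genes tested were lower, among them Basp1, Stmn4 and Smad1. Isl1 was not called (-0.09, edgeR adjusted p = 0.769). Gpr151 and Plaur, lower with siAtf4, were lower here too (log2 fold changes -0.68 and -0.41, edgeR adjusted p = 0.00584 and 0.00583), so that for them loss and addition of Atf4 gave the same direction.

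**Figure D5:**
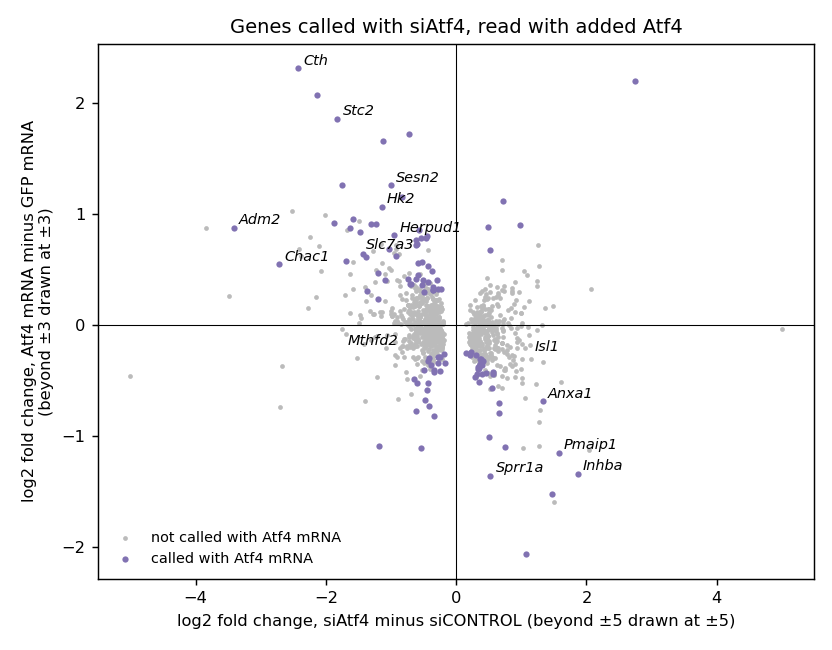
Log2 fold change with Atf4 mRNA against GFP mRNA (vertical axis) plotted against that with siAtf4 against siCONTROL (horizontal axis) for the genes called in the knockdown, Atf4 left out. Purple points were also called with Atf4 mRNA. Cth, Stc2, Sesn2 and Hk2 lie at upper left, Inhba, Pmaip1, Anxa1 and Sprr1a at lower right, and Mthfd2 and Isl1 near the horizontal line.

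The time 0 libraries give the change of these genes in control culture, and since that comparison shares the siCONTROL libraries, its values are only set side by side. From time 0 to 42 h of control culture Chac1 changed by 3.42 on the log2 scale, and siAtf4 against siCONTROL gave -2.72. The corresponding values were 2.13 and -1.75 for Mthfd2, 0.86 and -1.0005 for Asns, and 1.08 and -0.79 for Nars. Inhba changed by 6.86 in culture and 1.87 with siAtf4, and Anxa1 by 4.60 and 1.33. For Isl1 the values were -0.09 in culture and 1.11 with siAtf4, and for P2rx3 0.27 and -0.99.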

How the data were processed

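The values analysed are expected counts per gene that the authors deposited, which the submitters' processing notes tie to kallisto and GRCm39. For the program's version, its transcript annotation and any scaling, the sources used here give nothing. An estimated count depends on how reads shared by similar genes were divided. The deposited tables name 34183 genes, of which 32470 (95%) matched a symbol. Counts were rounded, genes with low counts were removed (filterByExpr), libraries were scaled by TMM, and the 8 siRNA groups were fitted together with edgeR 4.0.16 (quasi-likelihood F test, R 4.3.3, Benjamini-Hochberg adjustment over all genes tested, threshold 0.05); the 3 mRNA groups were fitted the same way. SEs are the log2 fold change over the square root of F. The scripts were tested on simulated data. DESeq2 1.42.0, limma 3.58.1, other filters and left-out libraries were alternatives. Named genes are Atf4, the 15 largest rises and falls among called genes with a mean of at least 5 CPM and no overlap, and members of the gene lists chosen for their role. The members and lists were chosen with earlier results of these data known. Libraries held 1539198 to 6621566 counts over the series. Some members of the gene lists are counted in the lists but are not reported by name here.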

Additional observations from a re-analysis of the deposited data

Results flagged for a closer look

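For 148 genes named in the text, the siAtf4 and the siCONTROL group were each checked for 1 library far from the other 3 (by Dixon's ratio of gap to range), which chance gives in about 1 in 20 groups. Of 296 groups, 11 passed the limit. Prr32 read 5.86 CPM in siAtf4 replicate 4, above 1.94 to 2.37 CPM in the other 3. 4930438A08Rik read 4.4 CPM in siAtf4 replicate 1, above 1.55 to 1.85 CPM in the other 3. Vegfa read 26.5 CPM in siAtf4 replicate 3, above 15.5 to 17.4 CPM in the other 3. Pmaip1 read 85.9 CPM in siAtf4 replicate 3, below 113 to 117 CPM in the other 3. Slc7a5 read 39.3 CPM in siAtf4 replicate 4, below 47.4 to 48.6 CPM in the other 3. Slc7a1 read 42.3 CPM in siAtf4 replicate 3, below 52.9 to 54.8 CPM in the other 3. Pck2 read 21.3 CPM in siAtf4 replicate 4, below 30.3 to 31.9 CPM in the other 3. Psat1 read 189.7 CPM in siCONTROL replicate 3, above 166 to 167 CPM in the other 3. Slc6a9 read 24.6 CPM in siCONTROL replicate 1, above 13.9 to 15.2 CPM in the other 3. Slc1a4 read 77.6 CPM in siCONTROL replicate 4, above 75.9 to 76.1 CPM in the other 3. Eprs read 167 CPM in siCONTROL replicate 3, below 172 to 173 CPM in the other 3. Each of these genes kept its call and direction when any single library was left out, and their groups did not overlap.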

How the results depend on the processing

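The counts of 408 higher and 620 lower genes ranged from 295 to 429 and from 435 to 678 over the alternatives run (DESeq2, limma, another normalization, other filters, the 2 groups fitted alone, a replicate block, and each library left out). No named gene that was called in the main fit or in an alternative changed direction between them. Sign changes of genes called in neither were not counted. Genes at least 2-fold higher and lower numbered 30 and 51 when only genes with a mean of at least 5 CPM were tested, and the same filter left 3 secreted stress factors lower, because fewer genes were tested. The count of mitochondrial tRNA synthetases called lower was 0 to 1 with single libraries left out, the 1 without siCONTROL replicate 4. With single mRNA libraries left out, the genes lower with siAtf4 numbered 31 to 43 higher and 11 to 23 lower with Atf4 mRNA, and the genes higher with siAtf4 numbered 1 to 4 higher and 16 to 28 lower, an alternative chosen after seeing the data; the cause was not tested.

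Same-numbered siAtf4 and siCONTROL libraries had correlations of their deviations of 0.151, 0.169, 0.172 and 0.072. Differently numbered ones ran from -0.176 to 0.115. For Atf4 mRNA and GFP mRNA the same-numbered values were 0.187, 0.198, 0.169 and 0.08, and differently numbered ones ran from -0.166 to 0.037. The labels do not say whether a number marks a shared preparation, and the main fits did not use it. With the number as a replicate block, 325 genes were higher and 473 lower, against 312 and 435 without it in the 2 groups alone. With the block 11 of the named genes lost their call and 2, Gap43 and Vars, gained one; Nfe2l2, Perp, Pou4f3 and Pycrl lost it there and kept it in the other alternatives. With the 2 groups fitted alone and no block, 9 lost their call and 1, Gap43, gained one. Of all 619 genes called lower, Atf4 left out, that fit kept 410 (66.2%), and of the 408 called higher it kept 267 (65.4%). The block kept 406 (65.6%) and 256 (62.7%). Each Atf4 mRNA library correlated best with the GFP mRNA library of its own number. Not every siAtf4 library did so with siCONTROL: siAtf4 replicate 4 correlated best with siCONTROL replicate 3 (0.115). Depth limits the lowest genes, such as Fgf21, which had no count in 2 of the siAtf4 libraries.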

Other observations

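In some pathways linked to nutrient use part of the members were called, beside 4.17% lower and 2.74% higher over all genes tested. Of 20 glucose uptake and glycolysis genes 5 fell and 1 rose (median log2 fold change -0.08). Hk2, which traps glucose as glucose 6-phosphate, read 10.5, 10.5, 10.8 and 10.4 CPM in the siCONTROL libraries and 4.74, 4.27, 6.16 and 3.91 CPM with siAtf4 (log2 fold change -1.15 ± 0.17 (SE), edgeR adjusted p = 4.06e-05). Slc2a1, the widespread glucose transporter, read 204, 187, 167 and 168 CPM against 137, 138, 118 and 127 CPM (log2 fold change -0.48 ± 0.07 (SE), edgeR adjusted p = 4.06e-05), and the neuronal transporter Slc2a3 was the gene that rose (log2 fold change 0.32, edgeR adjusted p = 0.00818), a call lost without siAtf4 replicate 2. Of 19 antioxidant genes controlled by Nfe2l2 (NRF2) 5 fell, Nfe2l2 itself among them (log2 fold change -0.33, edgeR adjusted p = 0.00292) and Hmox1, haem oxygenase (log2 fold change -0.47, edgeR adjusted p = 0.000689). Of 26 genes of nutrient sensing by mTORC1 4 fell, including Sesn2 and Eif4ebp1 (median log2 fold change -0.11). Of 21 autophagy and lysosome genes (median -0.02), 2 fell, Wipi1 (log2 fold change -0.47, edgeR adjusted p = 0.00347) and Lamp1 (log2 fold change -0.36, edgeR adjusted p = 0.000191).

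Translation genes outside the tRNA synthetases changed little as lists. Of 24 initiation factor genes 2 rose and 2 fell, and Eif3c, a core subunit of eIF3, read 398, 405, 369 and 365 CPM against 267, 230.4, 255 and 244 CPM, without overlap (log2 fold change -0.63 ± 0.05 (SE), edgeR adjusted p = 1.65e-09). Of 44 ribosomal protein genes 0 were called by edgeR, DESeq2 or limma, with 2 higher at an unadjusted p under 0.05 and a median log2 fold change of 0.06. The 23 interferon response genes tested gave 0 calls by the same 3 tools and 2 higher at an unadjusted p under 0.05, yet their median log2 fold change was 0.48 and their summed level 247 to 313 CPM in the siCONTROL libraries against 330.1 to 375 CPM with siAtf4, ranges that do not overlap. Against the mean of the 6 other knockdowns the same list had the opposite sign, with a median of -0.49, 0 genes higher and 2 lower.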
